A study of Mus musculus with 12 samples.

Results

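Myocardial infarction (MI) was compared with sham surgery in mouse heart muscle, over both of the drug treatments that the operated mice then received, and the genes of interest were those that infarction moved the same way under either treatment. All 12 libraries of the study entered the comparison: 6 from mice with MI and 6 from sham-operated mice. All 12 were male wild-type C57BL/6 mice with no transgene, aged about 10 weeks when injections were given and about 16 weeks by the sample description. They formed 4 groups of 3 mice: sham with vehicle, sham with prednisone, MI with vehicle and MI with prednisone. Prednisone, a synthetic glucocorticoid, was given at 1 mg/kg into the peritoneum 1 time a week for 6 weeks, at lights-on, beginning 2 weeks after surgery. Hearts were collected 24 hours after the final dose, long after the acute phase of infarction. The labels state neither how the infarct was made nor its size, and they do not say whether scar, border or remote muscle was sampled. In such bulk tissue, fewer cells of a type and less RNA per cell cannot be told apart.

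A healed infarct replaces muscle with scar, and the surviving cardiomyocytes carry a higher load. Loaded cardiomyocytes are known to raise secreted natriuretic peptides, to bring back contractile isoforms used in fetal heart, and to lower the enzymes of fatty acid oxidation, the main fuel pathway of the adult heart. Fibroblasts in and around the scar turn into matrix-secreting cells, whose products include structural collagens and matricellular proteins, which regulate how cells attach to the matrix.

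Expression was deposited as TPM, a share of each library scaled for transcript length, and was summed to genes. The depth of sequencing is unknown, since TPM does not keep it. In all, 13158 genes reached 1 TPM in at least 3 libraries and were tested with limma on log2(TPM + 1), with Benjamini-Hochberg adjustment over all of them and a call at an adjusted p under 0.05. Every log2 change below is MI minus sham on that scale, where low genes show less than their full fold change. The libraries held 11690 to 14307 genes at 1 TPM, and 21.62% to 41.99% of TPM was mitochondrially encoded. Libraries of both MI groups stood apart. In MI vehicle mouse 3, the median gene was 0.74 above the sham vehicle mean on the log2 scale, and this library alone set the first principal component (48.5% of variance); its summed T and NK cell markers were 310 TPM, against 1.92 to 14.7 TPM in the other 11. The 3 MI prednisone libraries separated on the second component (20.9%), and their levels relative to the sham vehicle mean fell with transcript length across genes (Spearman -0.25 to -0.40, against -0.12 to 0.24 in the other 9, a description across genes that are not independent). The median of all tested genes was 0.39 higher in MI under vehicle, 0.06 lower under prednisone (-0.06) and 0.16 higher over both. Median-ratio rescaling of the libraries brought these medians to 0.02, 0.03 and 0.01. The part of these library differences in the results below was not tested beyond the alternatives named.

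With treatment as a covariate, 924 of the 13158 genes (7.02%) differed between MI and sham, 662 of them higher in MI (5.03%) and 262 lower (1.99%). For all 924 the change had the same sign under vehicle and under prednisone. This is largely set by the fit, which counts a difference between treatments as error. Genes with opposite effects could hardly be called by it. Of the 924, 161 were called under both treatments in a fit of group means to all 12 libraries. A further 339 were called under vehicle only, 294 under prednisone only, and 130 in neither. The difference between the treatments in the effect of MI was itself called for 98 of the 924 genes, a count kept low by the fit with treatment as a covariate. Over all tested genes that difference was called for 2797 (21.3%), nearly all of them lower under prednisone (2726), but for 1323 after rescaling (674 higher), and for 250 of 11894 genes after each library was corrected for its trend with transcript length (111 higher). The differences between treatments given below rest on the values as deposited unless said otherwise. The count and its direction depended on scaling: after rescaling 2182 genes were called, 44.1% of them higher in MI, against 71.6% before, and 758 of the original 924 were among them with the same sign. After rescaling 962 of the 13158 genes were called higher and 1220 lower. With length correction 668 of 11894 were called higher and 1127 lower. These counts over all genes are the background for the rescaled and length-corrected list counts over both treatments below.

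The strictest group was the 161 genes (1.22% of those tested) called under both treatments with the same sign, 106 higher in MI (0.806%) and 55 lower (0.418%). These comparisons use separate mice, although their errors come from a shared estimate of the spread. With each treatment fitted alone, 2 genes were called under vehicle, 3266 under prednisone and 2 in both. The 106 risers were 29.5% of the 359 genes called higher under prednisone (2.73% of all tested) but 5.35% of the 1981 called higher under vehicle (15.1%). The 55 fallers were 46.2% of the 119 genes called lower under vehicle (0.904%) and 2.97% of the 1854 called lower under prednisone (14.1%). These shares depended on scaling too: after rescaling 490 genes were called higher and 489 lower under vehicle, and 1536 and 1881 under prednisone, so that shared risers were 7.81% of the prednisone risers and shared fallers 5.16% of the prednisone fallers. A further 159 genes were called in both treatments in opposite directions. The median change of the risers was 0.88 under vehicle and 0.83 under prednisone, and that of the fallers was -0.58 and -0.66. In 159 of the 161 genes the MI and sham mice did not overlap within either treatment, a pattern met by 8.64% of all tested genes (6.25% with MI higher, 2.39% with MI lower) and by 45.0% and 45.2% within vehicle and within prednisone alone. No overlap was also a condition for naming the largest shared rises and falls, so for those genes it is no separate support. Of the 161, 71 were called in both treatments after rescaling (217 were called then, 120 higher, 0.912%, and 97 lower, 0.737%), 78 were called in both without MI vehicle mouse 3, and 55 held under each of these changes. For the call over both treatments together, 122 of the 161 passed in each of the 12 fits that left out 1 mouse. The stricter count of 161 was less stable: it was 153 without MI vehicle mouse 3, but ran from 27 without sham vehicle mouse 3 to 367 without MI vehicle mouse 1.

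**Figure D1:**
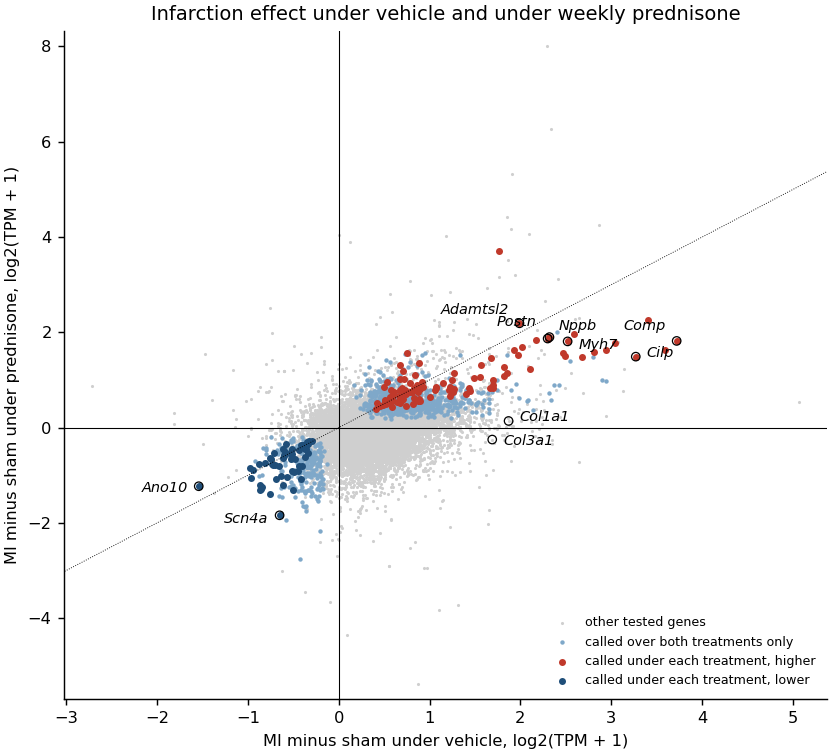
Each point is a tested gene, placed by its MI minus sham change in log2(TPM + 1) under vehicle (horizontal axis) and under prednisone (vertical axis). Coloured points are the 106 genes called higher and the 55 called lower in both treatments, pale blue points the other genes called over both treatments, and grey points the rest; across all genes the correlation of the axes was 0.35 (Pearson).

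Among genes with a known response to load, 10 of 27 were higher after MI in each treatment, the natriuretic peptides and a pair of fetal contractile isoforms among them. Of the 27 tested genes on a list of natriuretic peptides and load-responsive cardiomyocyte genes, 14 were higher over both treatments and none was lower (0 at an unadjusted p under 0.05 in limma too), against 5.03% and 1.99% of all tested genes. Of these, 10 were called higher in both treatments, beside 0.806% of all tested genes: Nppa, Nppb, Myh7, Acta1, Ankrd1, Gdf15, Ctgf, Lgals3, Rcan1 and Meox1. Other cells also express some of these: Meox1 is also on the list of activated fibroblast markers, Ctgf on that of matricellular proteins, and Lgals3 is also made by macrophages. The median change over the list was 0.88 under vehicle and 0.53 under prednisone, beside 0.39 and -0.06 for all genes. After rescaling 14 were again called higher, and 9 in each treatment, without Rcan1. Between 11 and 14 passed when a mouse was left out.

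Nppb encodes B-type natriuretic peptide, a hormone released by stretched ventricle (chr4:147985788-147987205, plus strand, GRCm38). Nppb was at 85.2, 91.1 and 150.1 TPM in the 3 sham vehicle mice and at 389, 749 and 509.6 TPM in the 3 MI vehicle mice. Under prednisone it was at 142, 286 and 198 TPM after sham surgery and 839, 706 and 713 TPM after MI. No MI mouse of either treatment overlapped any sham mouse. The log2 change was 2.32 under vehicle and 1.90 under prednisone, 2.11 ± 0.21 (SE) over both (limma adjusted p = 0.000676), and the effects differed by less than their error (-0.42 ± 0.42, adjusted p = 0.475). Its neighbour Nppa (chr4:148000722-148002079, plus strand), encoding the atrial peptide, rose by 1.57 ± 0.22 (adjusted p = 0.00519). Nppa was at 478 to 1333 TPM in the 3 sham vehicle mice, 1029 to 1464 in the sham prednisone mice, 2049.7 to 3228 in the MI vehicle mice and 2837 to 4251 in the MI prednisone mice, again with no overlap. Atrial tissue also makes Nppa, and markers of atrial muscle moved differently in the treatments: summed over 6 atrial markers without Nppa, levels were 427 to 1261 TPM in sham vehicle, 1042 to 1333 in sham prednisone, 154 to 953 in MI vehicle and 1613 to 2052 in MI prednisone. In MI vehicle mouse 2 that sum was the lowest of all 12 (153.8 TPM) while Nppa was at 2840.4 TPM, above all 6 sham mice. The part of atrial tissue in the higher Nppa of the MI prednisone mice was not tested.

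Promoters of 3 of the risers show letters that cardiac load-response factors are known to read, and they are printed here because the genes moved together. Each is the 250 bases before the RefSeq gene start (GRCm38.p6, 5′ to 3′ on the gene's strand); capitals mark the M-CAT core CATTCC or its reverse complement GGAATG, which TEAD factors bind, and in Acta1 also the CArG box, which serum response factor binds.
Nppb, chr4:147985650-147985899, plus strand: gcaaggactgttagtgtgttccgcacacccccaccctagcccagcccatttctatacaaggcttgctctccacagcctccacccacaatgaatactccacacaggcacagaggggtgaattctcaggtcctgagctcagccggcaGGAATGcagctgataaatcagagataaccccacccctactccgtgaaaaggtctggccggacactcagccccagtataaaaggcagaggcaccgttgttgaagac
Acta1, chr8:123894776-123895025, minus strand: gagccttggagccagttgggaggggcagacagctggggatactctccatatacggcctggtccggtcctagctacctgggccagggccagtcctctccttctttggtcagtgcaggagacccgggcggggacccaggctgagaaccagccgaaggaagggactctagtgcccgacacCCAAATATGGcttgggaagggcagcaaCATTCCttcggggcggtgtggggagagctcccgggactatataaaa
Ankrd1, chr19:36119845-36120094, minus strand: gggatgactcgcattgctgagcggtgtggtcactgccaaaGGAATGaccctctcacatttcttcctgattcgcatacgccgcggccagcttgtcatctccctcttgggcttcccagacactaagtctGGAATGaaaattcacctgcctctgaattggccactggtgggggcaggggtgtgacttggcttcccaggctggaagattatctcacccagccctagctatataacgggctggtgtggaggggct
The Nppb window held 1 M-CAT core, Acta1 1 M-CAT core and 1 CArG box that do not overlap, and Ankrd1 2 M-CAT cores. The GENCODE start of Nppb given above falls inside its window, so the marked Nppb letters lie upstream of the RefSeq start but downstream of the GENCODE start. On either strand, 12.6% of all 32851 RefSeq promoter windows of this length hold an M-CAT core and 1.5% a CArG box. Windows were matched for 76 of the 106 shared risers and for 9619 tested genes. An M-CAT core was in 12 of the 76 (15.8%) and in 12.9% of the tested genes. A CArG box was in 3 (3.9%) and in 1.4%. Whether the risers hold these letters more often was not tested. A match describes the letters only, and binding was not measured. The Nppa window held neither motif, which says only that these letters are absent from it.

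The myosin heavy chain genes moved in opposite directions after MI, and did so under both treatments. Myh7, encoding the slow beta-myosin heavy chain (chr14:54970684-54994626, minus strand), was at 32.6, 38.8 and 37.8 TPM in sham vehicle and 168, 349 and 163 TPM in MI vehicle mice. In the prednisone groups it was at 44.7, 29.2 and 35.7 TPM after sham surgery and 136, 154 and 101 TPM after MI. It rose by 2.52 under vehicle and 1.81 under prednisone, and by 2.16 ± 0.21 over both (limma adjusted p = 0.000676). Its neighbour Myh6, the fast alpha chain that dominates adult mouse heart (chr14:54941921-54966927, minus strand), was at 2846 to 3034 TPM in sham vehicle, 3031 to 3485 in sham prednisone, 1622 to 2242 in MI vehicle and 2178 to 2681 in MI prednisone mice. Myh6 fell by 0.53 on the log2 scale (SE 0.09, adjusted p = 0.0132), by 0.61 under vehicle and 0.44 under prednisone; its fall was not called in each treatment after rescaling, and with length correction and a replicate term together its change was -0.88 with an adjusted p of 0.0625. Myh7 thus made up 1.13%, 1.26% and 1.27% of Myh6 plus Myh7 TPM in the sham vehicle mice and 6.97%, 15.1% and 9.1% in the MI vehicle mice. In the prednisone groups the share was 1.45%, 0.83% and 1.04% after sham surgery and 5.88%, 5.91% and 3.64% after MI. Every MI mouse exceeded every sham mouse, and the mean difference of 6.61 percentage points had p = 0.005 by an exact two-sided permutation within treatments, the smallest that the 400 arrangements allow. The MI and sham mice of each treatment were already apart for both genes, which fixes this p. It adds no support beyond their values. The paralogs are alike in sequence, so the division of reads between them carries some uncertainty.

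Acta1, the skeletal alpha-actin that fetal and loaded hearts use (chr8:123891769-123894751, minus strand), followed the same pattern. It was at 86.9, 163 and 103 TPM in sham vehicle, 307, 609.8 and 528 in MI vehicle, 109.9, 115 and 142 in sham prednisone and 496, 313 and 400.3 TPM in MI prednisone mice. The MI mice were again all above the sham mice, and the log2 change was 2.02 under vehicle and 1.69 under prednisone (1.86 ± 0.20 over both, limma adjusted p = 0.00125). Ankrd1, a stretch-sensitive repressor in the sarcomere and nucleus, was at 369.9 to 443 TPM in all 6 sham mice, at 1039 to 2068 TPM in MI vehicle and at 755 to 1073 TPM in MI prednisone mice. It rose by 1.82 and 1.08 (1.45 ± 0.18 over both, adjusted p = 0.00245). Rcan1, an inhibitor and target of calcineurin signalling, rose by 1.21 and 0.80.

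Stress-induced secreted and nuclear factors also rose in each treatment. Gdf15, a TGF-beta family hormone of tissue stress, was at 0.51 to 1.58 TPM in the 6 sham mice, at 5.39, 17.2 and 9.33 TPM in MI vehicle and at 11.5, 6.13 and 5.25 TPM in MI prednisone mice. The lowest MI mouse was thus above the highest sham mouse, with a log2 change of 2.59 and 1.97 in the respective treatments (2.28 ± 0.27, limma adjusted p = 0.00167). Nupr1, a stress-induced chromatin protein, rose by 2.17 and 1.83. Tnfrsf12a, the receptor of the cytokine TWEAK, rose by 1.49 and 1.05. Atf4, the transcription factor of the integrated stress response, rose by 0.59 and 0.56, and passed in 6 of the 12 fits that left out a mouse. Sprr1a, a cornified-envelope protein made by stressed cardiomyocytes, was below the level of 5 TPM set for naming genes and is added here after its values were seen. It was at 0 to 0.56 TPM in the sham mice, at 6.14, 15.4 and 11.6 TPM in MI vehicle and at 8.26, 4.53 and 4.64 TPM in MI prednisone mice, and rose by 2.83 ± 0.27 (adjusted p = 0.000676).

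**Figure D2:**
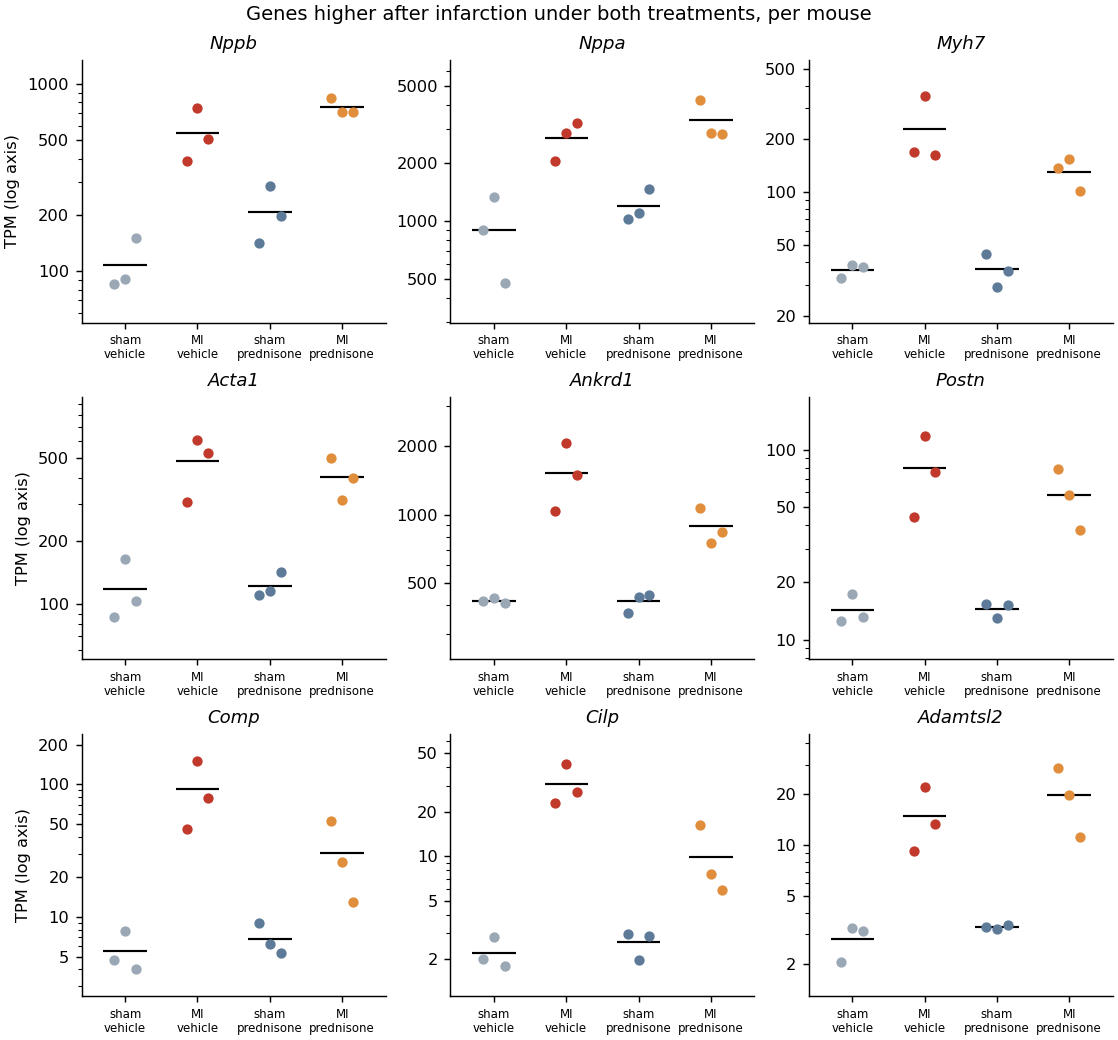
TPM per mouse on a log axis for 9 genes called higher after MI in both treatments; points are mice, bars are group means, and the 4 groups are sham and MI with vehicle and with prednisone. In each panel all MI mice of a treatment lie above its sham mice. The groups are likewise apart in 159 of the 161 genes called in both treatments. For Comp and Cilp the MI vehicle mice (45.99 to 151.5 TPM and 22.8 to 42.2 TPM) lie mostly above the MI prednisone mice.

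Of the matricellular and scar proteins, 11 of 33 rose in each treatment. Of the 33 tested genes on that list, 16 were higher over both treatments and none was lower (0 at an unadjusted p under 0.05 in limma too), against 5.03% and 1.99% of all tested genes. Of these, 11 were called higher in both treatments, beside 0.806% of all tested genes: Postn, Comp, Cilp, Thbs4, Sparc, Ctgf, Wisp2, Ltbp2, Mfap4, Mfap5 and Fbln2. Under vehicle 28 of the 33 were called higher and under prednisone 12, with 1 lower, beside 15.1% and 2.73% of all tested genes called higher. The list's median change was 1.66 under vehicle and 0.40 under prednisone, and for 14 of the 33 the difference between treatments was called (background 21.3%). After rescaling that difference was called for 1 of the 33, and with length correction for 2 of the 31 with a length, 1 in each direction. After rescaling 12 were called in each treatment, 10 of them from these 11, without Fbln2. Between 14 and 23 of the 33 were called over both treatments when a mouse was left out, and 16 without MI vehicle mouse 3.

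Postn, encoding periostin, the defining secreted protein of activated cardiac fibroblasts (chr3:54361109-54391037, plus strand), was at 12.6 to 17.3 TPM in the 6 sham mice. It was at 44, 119 and 76.4 TPM in MI vehicle and 79, 57.5 and 37.9 TPM in MI prednisone mice, so the MI ranges of the treatments overlapped each other but no sham mouse. It rose by 2.30 and 1.87 (2.08 ± 0.23, limma adjusted p = 0.00131), and the treatments did not differ in this beyond error (-0.42 ± 0.46, adjusted p = 0.519). Comp, cartilage oligomeric matrix protein, was at 4.02 to 8.91 TPM in sham mice, at 46, 152 and 79 TPM in MI vehicle and at 53.1, 25.8 and 12.9 TPM in MI prednisone mice. Its change was 3.72 under vehicle and 1.82 under prednisone, a difference of -1.89 ± 0.70 with an adjusted p of 0.0723. Cilp, cartilage intermediate layer protein, an antagonist of TGF-beta in the matrix, was at 1.80 to 2.97 TPM in sham mice, at 22.8, 42.2 and 27.2 TPM in MI vehicle and at 16.2, 7.56 and 5.93 TPM in MI prednisone mice. Its rise was called in both treatments but was smaller under prednisone on the deposited scale (3.27 against 1.49, difference -1.78 ± 0.45, adjusted p = 0.0216), and thrombospondin gene Thbs4 behaved likewise (2.94 against 1.64, difference -1.30 ± 0.38, adjusted p = 0.0338). Neither difference was called after rescaling (Cilp -1.28, adjusted p = 0.105; Thbs4 -0.82, adjusted p = 0.187) or with length correction (Cilp -1.07, adjusted p = 0.249; Thbs4 -0.68, adjusted p = 0.368).

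Other secreted matrix genes were called in both treatments with no called difference between them. Wisp2, a matricellular CCN family protein, rose by 3.04 and 1.78, Mfap4, an elastic fibre protein, by 2.81 and 1.58, and Ltbp2, a microfibril protein of the latent TGF-beta binding family, by 2.68 and 1.49. Ctgf, the CCN family growth factor, rose by 2.11 and 1.24, and Sparc, a collagen-binding matricellular protein, by 1.40 and 0.71. Sfrp2, a secreted Wnt antagonist that also acts on procollagen processing, rose by 3.59 and 1.62, and was the single gene called in both treatments among the 14 tested Wnt ligands and antagonists. The estimated rise was larger under vehicle for each of these members, as for 75 of the 106 shared risers, in a comparison where the median of all genes was also higher. Adamtsl2, a microfibril-associated regulator of TGF-beta availability, showed no detectable difference between treatments in its rise (0.20 ± 0.46, adjusted p = 0.778). It was at 2.06 to 3.41 TPM in the 6 sham mice, at 9.26, 22 and 13.4 TPM in MI vehicle and at 28.6, 19.9 and 11.2 TPM in MI prednisone mice, with a log2 change of 1.99 and 2.19 (2.09 ± 0.23, adjusted p = 0.00131).

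Few collagens were called in both treatments. Of 21 tested collagen genes, 20 were called higher under vehicle and 2 under prednisone, beside 15.1% and 2.73% of all tested genes. For 14 the difference between treatments was called (background 21.3%). These counts were 11, 4 and 2 after rescaling and 10, 5 and 0 with length correction. The 2 called in both were Col15a1, a basement membrane collagen of vessels and muscle, and Col6a3, a chain of the microfibrillar collagen around cells. Col15a1 was at 19.4 to 21.4 TPM in the 6 sham mice, 28.9, 35.1 and 30.9 TPM in MI vehicle and 37.7, 35.8 and 31.9 TPM in MI prednisone mice, a rise of 0.58 and 0.78; for its most abundant transcript alone the change over both treatments was -0.17 (adjusted p = 0.75). Col6a3 rose by 0.73 and 0.71. After rescaling neither was called in each treatment, and Col8a2 and Col12a1 were instead. The main scar collagen Col1a1 was at 11.8 to 16.9 TPM in the sham mice, at 40.1, 89.5 and 44.1 TPM in MI vehicle but at 20.7, 15.7 and 14.4 TPM in MI prednisone mice. Its change was 1.87 under vehicle and 0.14 under prednisone (difference -1.73 ± 0.37, limma adjusted p = 0.013), and over both treatments it was not called (adjusted p = 0.0639). With length correction Col1a1 was called over both treatments (1.02, adjusted p = 0.0207) and its difference was not (-0.94, adjusted p = 0.252), nor was the difference called after rescaling (-1.20, adjusted p = 0.0946). Col3a1 likewise changed by 1.69 and -0.25 (difference -1.94 ± 0.31, adjusted p = 0.0063), a difference also called after rescaling (-1.40, adjusted p = 0.0283) but not with length correction (-1.29, adjusted p = 0.07). Over both treatments 6 of the 21 collagens were called, 7 after rescaling, 15 with length correction, 2 without MI prednisone mouse 1 and 9 without MI prednisone mouse 3.

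Genes of matrix processing gave a smaller shared set. Of 23 tested proteases and inhibitors, 8 were higher over both treatments (5 without MI prednisone mouse 1, 9 after rescaling) and none lower, against 5.03% and 1.99% of all tested genes, and Adamtsl2 and Pcolce, an enhancer of procollagen cleavage, were called in each treatment (Pcolce 1.06 and 0.79). Timp1, the inducible inhibitor of matrix metalloproteinases, was at 2.10 to 3.79 TPM in the sham mice, at 14.2, 62.3 and 15.2 TPM in MI vehicle and at 15.9, 9.25 and 6.19 TPM in MI prednisone mice. Its rise over both treatments was called (2.15 ± 0.38, limma adjusted p = 0.0121), while the prednisone change of 1.49 was not (adjusted p = 0.0567). Among 22 genes of TGF-beta, activin and BMP signalling 9 were higher and none lower (11 and 1 after rescaling), against the same 5.03% and 1.99%. The count of 9 was between 2 and 10 when a mouse was left out (2 without sham vehicle 3 or sham prednisone 2). Ltbp2 and Gdf15 were called in both treatments. Of 26 tested growth factors and insulin-like growth factor genes, 5 were higher (2 without MI prednisone mouse 1) and 2 lower, against 5.03% and 1.99% of all tested genes. None was lower without sham vehicle 3, sham prednisone 1 or MI prednisone 1. After rescaling 8 were higher and 4 lower. Mdk, the heparin-binding growth factor midkine, rose by 1.56 and 1.07 from 2.73 to 3.82 TPM in the 6 sham mice, Igfbp3, an IGF carrier, by 1.23 and 0.66, and Fgf16, a cardiac fibroblast growth factor, fell by 0.57 over both (SE 0.11).

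Several shared risers are genes that immune cells express. Lgals3, encoding galectin-3, a lectin of macrophages and injured heart, was at 5.72 to 11 TPM in the 6 sham mice, at 18.7, 41.8 and 61.4 TPM in MI vehicle and at 25.3, 37 and 19.5 TPM in MI prednisone mice, a rise of 1.97 and 1.53 (1.75 ± 0.27, limma adjusted p = 0.0082). The monocyte chemokine Ccl8 rose by 1.85 and 1.15, and Gpnmb, a glycoprotein of lipid-laden macrophages, by 1.23 and 0.85. C4b, a complement component whose reads may be shared with its near-identical neighbour C4a, changed by 1.93 and 1.63, but for its most abundant transcript the change over both treatments was 0.97 with an adjusted p of 0.182. By the lists of cell type markers, 0 of 8 macrophage and monocyte markers were called over both treatments in limma (6 at an unadjusted p under 0.05, and 5 after rescaling), although 7 were called higher under vehicle and none under prednisone (15.1% and 2.73% of all tested genes). After rescaling 3 of these markers were called higher under vehicle, beside 490 of 13158 genes, and with length correction 3, beside 309 of 11894. Under prednisone 0 were called with either change. Their summed level was 268 to 384 TPM in sham vehicle, 307 to 411 in sham prednisone, 602 to 1330 in MI vehicle and 300 to 547 TPM in MI prednisone mice, the highest value being MI vehicle mouse 3. Lgals3 and Gpnmb were thus called in both treatments while the defining macrophage markers were not; the part of macrophage number in them was not tested.

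Fatty acid oxidation gave more genes called lower in both treatments than any other of the 16 lists. Of 32 tested genes of fatty acid uptake and oxidation, 18 were lower over both treatments and none was higher (1 at an unadjusted p under 0.05 in limma), against 1.99% and 5.03% of all tested genes. Of these, 9 were called lower in both treatments, beside 0.418% of all tested genes: Acadvl, Hadha, Hadhb, Hadh, Decr1, Acot1, Acot2, Etfa and Mlycd. Under vehicle 12 of the 32 were called lower and under prednisone 21, beside 0.904% and 14.1% of all tested genes. This order depended on scaling. After rescaling 23 were called lower under vehicle and 9 under prednisone (1 higher), beside 489 and 1881 of all 13158 genes. With length correction 14 and 7 of the 27 with a length were called lower, beside 304 and 932 of 11894. The list's median change was -0.33 under vehicle and -0.40 under prednisone, beside 0.39 and -0.06 for all genes. After rescaling 23 of the 32 were called lower over both treatments but 4 in each treatment (Acsl1, Hadha, Acot1 and Acot2), and with length correction 22 were called lower over both. Without MI prednisone mouse 1 the count over both treatments was 5, and without sham vehicle mouse 2 or sham prednisone mouse 1 it was 11.

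Hadha and Hadhb encode the alpha and beta subunits of the mitochondrial trifunctional protein, which carries out the last steps of long-chain fatty acid oxidation. Hadha (chr5:30118304-30155162, minus strand) was at 496, 547 and 502 TPM in sham vehicle, 412, 403 and 378 in MI vehicle, 541, 509 and 544 in sham prednisone and 325, 354 and 361 TPM in MI prednisone mice. It fell by 0.37 under vehicle and 0.62 under prednisone (0.49 over both, -0.49 ± 0.07, limma adjusted p = 0.00705). Hadhb was at 856, 892 and 922 TPM in sham vehicle, 773, 671 and 626 in MI vehicle, 888, 867 and 958 in sham prednisone and 619.6, 616 and 760.2 TPM in MI prednisone mice. It fell by 0.37 and 0.45 (-0.41 ± 0.08, adjusted p = 0.0176), so that both subunits were lower in every MI mouse than in any sham mouse. The genes lie head to head: their RefSeq starts are 273 bases apart on opposite strands, and the sequence printed here, shown because these subunits fell together, lies upstream of both RefSeq starts, while the GENCODE end of Hadha given above falls inside it (GRCm38.p6, 5′ to 3′ on the Hadhb strand).
Hadhb, chr5:30155003-30155252, plus strand: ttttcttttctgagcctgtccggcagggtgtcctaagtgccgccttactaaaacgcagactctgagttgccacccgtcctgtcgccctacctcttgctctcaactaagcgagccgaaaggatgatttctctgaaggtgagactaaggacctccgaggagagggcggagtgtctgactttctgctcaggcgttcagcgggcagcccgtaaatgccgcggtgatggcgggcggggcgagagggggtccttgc
These 250 bases hold no AGGTCA on either strand, the core letters read by nuclear receptors such as PPAR-alpha, which 14.0% of all RefSeq windows hold; no match says only that these letters are not in this window.

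Enzymes at other steps of the pathway fell by similar amounts. Acadvl, the very-long-chain acyl-CoA dehydrogenase of the first step, was at 394 to 449 TPM in the 6 sham mice, at 331, 299.7 and 309 TPM in MI vehicle and at 278, 352 and 318 TPM in MI prednisone mice. Decr1, a reductase needed for unsaturated fatty acids, was at 122 to 138 TPM in sham mice and at 92.4 to 108 TPM in all 6 MI mice. Acadvl fell by 0.36 and 0.39 and Decr1 by 0.39 and 0.37, and the differences between treatments were -0.03 ± 0.14 and 0.02 ± 0.13. Etfa, a subunit of the flavoprotein that passes electrons on to the respiratory chain, fell by 0.34 and 0.54. Mlycd, malonyl-CoA decarboxylase, which relieves the brake on fatty acid import, fell by 0.35 and 0.30, though it passed over both treatments in 5 of the 12 fits that left out a mouse. Acot1 fell by 0.94 and 0.89 and Acot2 by 0.40 and 0.81; these thioesterases are near-identical paralogs whose reads can be exchanged. Plin5, the lipid droplet protein of oxidative muscle, is not on the list and fell by 0.44 and 0.47, a fall not called in each treatment after rescaling.

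Some genes of the pathway were not called in each treatment. Cd36, the fatty acid translocase, was at 586.5 to 664 TPM in sham vehicle and 561 to 578 TPM in MI vehicle mice, but at 659.9 to 671 TPM in sham prednisone and 209.8 to 363 TPM in MI prednisone mice. Its change was -0.12 and -1.28, a difference of -1.16 (limma adjusted p = 0.00955), and it was not called over both treatments (adjusted p = 0.0506). The Cd36 difference was not called after rescaling (-0.61, adjusted p = 0.23) or with length correction (-0.69, adjusted p = 0.265). Ppara, encoding the PPAR-alpha receptor that controls the pathway, changed by 0.21 under vehicle and -1.87 under prednisone (difference -2.08, adjusted p = 0.00526), and this difference was also called after rescaling (-1.60, adjusted p = 0.0234) and with length correction (-1.53, adjusted p = 0.0435). Acadm and Acsl1 were called over both treatments, but the estimated fall was larger under prednisone (Acadm -0.30 and -0.96; Acsl1 -0.31 and -1.04; adjusted p of the difference 0.0365 and 0.0409), differences not called after rescaling (adjusted p = 0.847 and 0.704) or with length correction (0.663 and 0.907).

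**Figure D3:**
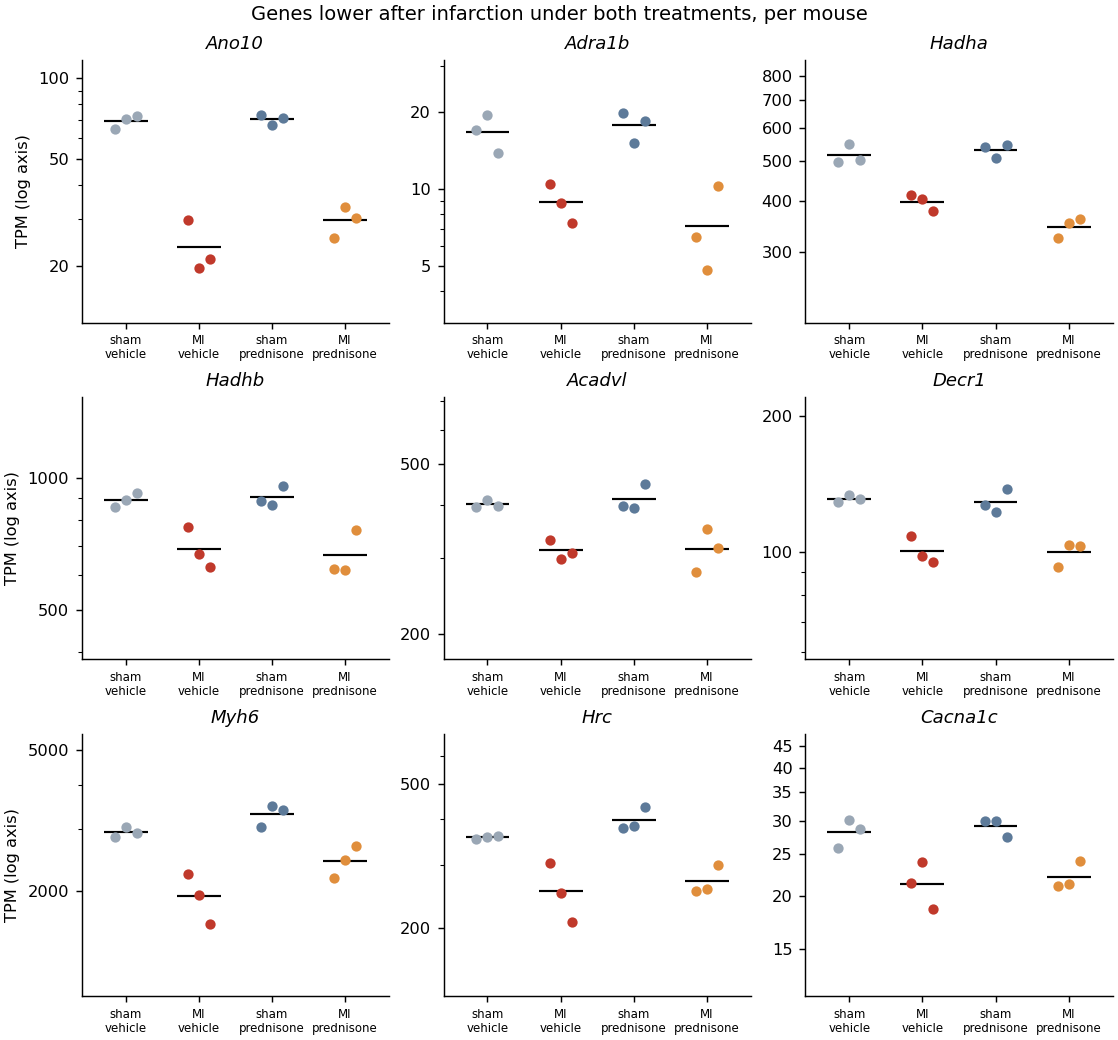
TPM per mouse on a log axis for 9 genes called lower after MI in both treatments; points are mice and bars group means. In each panel the MI mice of a treatment lie below its sham mice. The groups are likewise apart in 159 of the 161 genes called in both treatments. Ano10 shows the widest separation, from 64.98 to 73.1 TPM in sham mice to 19.7 to 33.2 TPM in MI mice.

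Other energy genes changed less evenly. Of 54 nuclear genes of oxidative phosphorylation, 5 were lower and none higher over both treatments (Ndufs1, Sdha, Sdhc, Uqcrc2 and Atp5a1), against 1.99% and 5.03% of all tested genes. After rescaling 5 were lower, a share like that of all tested genes (1220 of 13158). With length correction 11 of 49 were lower, beside 1127 of 11894. Sdhc, an anchor subunit of complex II, was the single member called in each treatment (-0.36 and -0.44). Its most abundant transcript was not called over both treatments in limma (-0.33, adjusted p = 0.0632). The list's medians had opposite signs, -0.20 under vehicle and 0.14 under prednisone, beside 0.39 and -0.06 for all tested genes. The difference between treatments was called for 13 of the 54 (background 21.3%). It was called for 28 after rescaling, beside 1323 of 13158 genes, and for 0 of 49 with length correction, beside 250 of 11894. Of 22 genes of pyruvate use and the citrate cycle, 8 were lower and none higher over both treatments, against 1.99% and 5.03% of all tested genes. After rescaling 13 were lower, and with length correction 15. On the values as deposited none was called in each treatment, and 1 to 10 passed over both when a mouse was left out. The count was 1 without any single sham prednisone mouse, sham vehicle 2 or 3, or MI prednisone 1. Of 25 genes of glucose uptake, glycolysis and glycogen, 4 were higher (Gpi1, Pfkp, Pgam1 and Eno1) and 4 lower (Slc2a4, Pfkm, Phkg1 and Ppp1r3a), with none called in both treatments. Over all tested genes 5.03% were higher and 1.99% lower. When a mouse was left out, 1 to 6 were higher and 0 to 4 lower, and after rescaling 2 were called higher in each treatment, Pgam1 among them. The lower genes are muscle forms, among them the insulin-regulated transporter Slc2a4 and the muscle phosphofructokinase Pfkm. Ckb, the brain-type creatine kinase, rose over both treatments by 0.68 ± 0.13 (limma adjusted p = 0.0164), and Ppm1k, a phosphatase that activates branched-chain amino acid breakdown, fell by 0.50 under vehicle and 1.31 under prednisone (difference -0.81 ± 0.22, adjusted p = 0.0263), a difference not called after rescaling (adjusted p = 0.55) or with length correction (0.884). Of 18 circadian clock genes, 0 were called over both treatments in limma, with all mice or with any 1 left out, and 3 were lower at an unadjusted p under 0.05. After rescaling 4 clock genes were called lower over both treatments, and 4 with length correction.

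**Figure D4:**
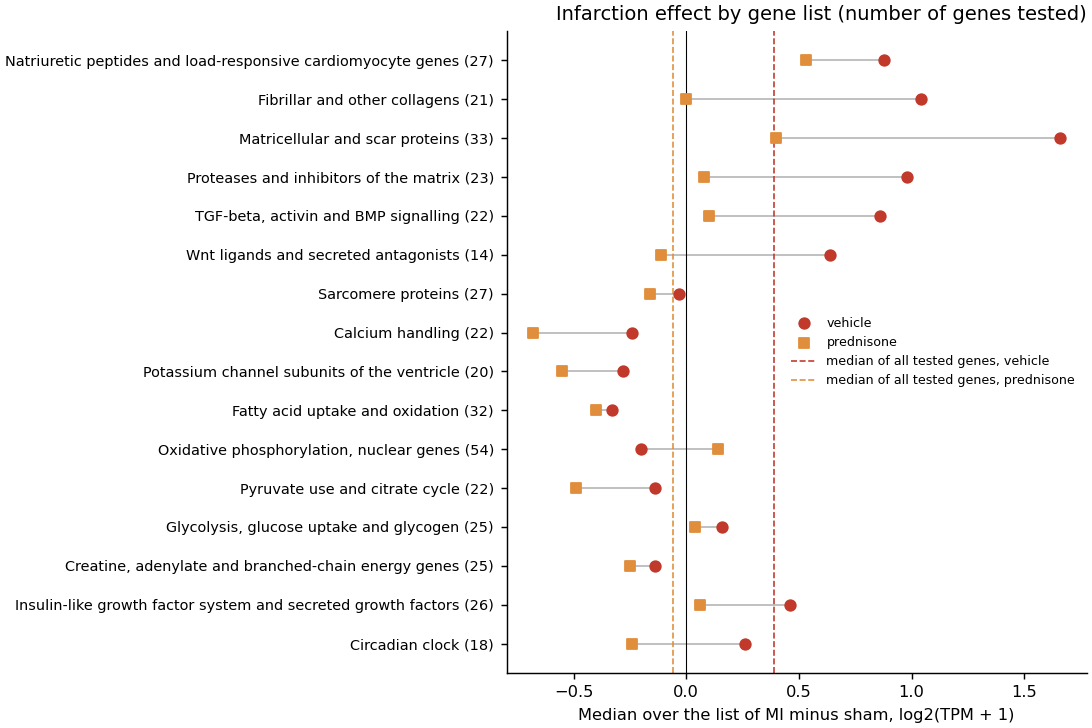
Median MI minus sham change, log2(TPM + 1), over the tested genes of each of 16 lists, under vehicle (circles) and prednisone (squares); dashed lines are the medians of all tested genes, 0.39 and -0.06. The fatty acid list lies left of the all-gene median in both treatments (-0.33 and -0.40), the load-responsive list right of it (0.88 and 0.53), and the collagen list well to the right under vehicle (1.04) and at 0.00 under prednisone.

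Of 22 calcium handling genes, 9 were lower over both treatments and none higher, against 1.99% and 5.03% of all tested genes, and 13 were not called; after rescaling 16 were lower, and with length correction 13. Under vehicle 2 were called lower (0.904% of all genes), and under prednisone 16 were called lower and 1 higher (14.1% and 2.73% of all genes). The lower calls were 2 and 9 after rescaling, beside 489 and 1881 of all 13158 genes. With length correction they were 3 and 9, beside 304 and 932 of 11894. Cacna1c and Hrc were called in each treatment, though not after rescaling. Cacna1c, the pore of the L-type calcium channel, was at 25.9 to 30.1 TPM in the 6 sham mice, at 21.4, 24 and 18.6 TPM in MI vehicle and at 21, 21.3 and 24.1 TPM in MI prednisone mice, a fall of 0.40 and 0.38 that passed over both treatments in 6 of the 12 fits that left out a mouse. Hrc, a calcium-binding protein of the sarcoplasmic reticulum, was at 353 to 432 TPM in sham mice and at 208 to 303 TPM in MI mice and fell by 0.51 and 0.56 (-0.53 ± 0.09, limma adjusted p = 0.0123). Atp2a2, the calcium pump SERCA2a, was at 2382 to 3016 TPM in sham mice, at 2057, 1937 and 1601 TPM in MI vehicle and at 1144, 926 and 1752 TPM in MI prednisone mice. Atp2a2 was called over both treatments (-0.87 ± 0.17, adjusted p = 0.0172), a call that was lost without MI prednisone mouse 1. The list's count was 2 without that mouse, 3 to 5 without any single sham prednisone mouse, 5 and 4 without sham vehicle 2 and 3, and 4 without MI prednisone 2.

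Potassium channel subunits of the ventricle were lower for 9 of 20 and higher for none over both treatments, against 1.99% and 5.03% of all tested genes. After rescaling 12 were lower, and with length correction 9. The count of 9 was 3 without MI prednisone mouse 1, 4 without sham prednisone 1 or 2, and 5 without sham vehicle 3 or MI prednisone 2. Kcnv2, a modifier subunit at about 1 TPM, was the member called in each treatment (-0.75 and -0.66). Kcnd2 and its partner Kcnip2, which form the transient outward current of mouse ventricle, changed by -0.60 and -1.25 and by -0.45 and -0.68, and both were called over the treatments together (adjusted p = 0.0159 and 0.0172). Adra1b, the alpha-1B adrenergic receptor of cardiomyocytes (chr11:43774606-43901210, minus strand), was called in each treatment. It was at 13.9 to 19.8 TPM in the 6 sham mice, at 10.5, 8.80 and 7.41 TPM in MI vehicle and at 6.49, 4.84 and 10.3 TPM in MI prednisone mice, with a change of -0.84 and -1.24 (-1.04 ± 0.17, adjusted p = 0.00993). Its most abundant transcript alone changed by -1.47 with an adjusted p of 0.0727. Gpr22, an orphan receptor of the heart, fell by 0.85 and 1.29, though after rescaling not in each treatment. Scn4a, a sodium channel best known from skeletal muscle, fell by 0.65 and 1.84, a difference of -1.19 ± 0.27 (adjusted p = 0.0144) that was not called after rescaling (-0.76, adjusted p = 0.161) or with length correction (-0.50, adjusted p = 0.42). Of 27 tested sarcomere genes, Myh6 and Ttn, encoding titin, were lower (7.41%, against 1.99% of all tested genes) and none higher. Ttn was not called by limma after length correction (-0.16, adjusted p = 0.524).

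The smallest p of all genes belonged to Ano10, a membrane protein of the anoctamin family (chr9:122175874-122294423, minus strand). Ano10 was at 65, 70.8 and 72.2 TPM in sham vehicle, 29.7, 19.7 and 21.2 in MI vehicle, 73.1, 66.9 and 71.2 in sham prednisone and 25.4, 33.2 and 30.3 TPM in MI prednisone mice. Every MI mouse was below the lowest sham mouse, with a change of -1.54 and -1.23 (-1.38 ± 0.12, limma adjusted p = 0.000443). Further falls among the genes named by rule were those of Wnk2, a kinase of ion transport, by 0.72 and 0.79, Pla2g5, a secreted phospholipase, by 0.70 and 0.79, Efnb3, an ephrin ligand, by 0.69 and 1.08, and Rbfox1, a splicing factor of muscle and brain, by 0.61 and 1.21. Ttll1 and Agtpbp1, a polyglutamylase and a deglutamylase that act on tubulin tails, fell by 0.81 and 0.74 and by 0.52 and 0.66. The Ttll1 call was lost for its most abundant transcript (-0.30, adjusted p = 0.275). Ppip5k2, an inositol phosphate kinase, changed by -0.76 and -1.39, Cep128, a centriole protein, by -0.63 and -1.02, and the less studied Smco1 and Yipf7 by -0.76 and -0.64 and by -0.60 and -0.57, neither called in each treatment after rescaling.

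Of the 161 shared genes, 7 had a called difference between treatments. Cilp, Thbs4, Scn4a and Ppm1k are given above. Lrp1, an endocytic receptor, rose more under prednisone (0.75 and 1.57, difference adjusted p = 0.0355), as did the protocadherin Pcdhgc4 (1.77 and 3.70, adjusted p = 0.00965), which shares exons with other genes of its cluster, so its reads are uncertain. Of the 7 differences, those of Lrp1 (1.36, adjusted p = 0.0247, and 1.55, adjusted p = 0.0283) and Pcdhgc4 (2.32, adjusted p = 0.00503, and 2.44, adjusted p = 0.00354) were the 2 also called after rescaling and with length correction. The other was an uncharacterised transcript (3632451O06Rik, -0.41 and -1.08).

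Markers of cell types differed between MI and sham in part in the same direction under both treatments. Summed over 8 activated fibroblast markers, levels were 66.2 to 83.4 TPM in the 6 sham mice, 185 to 446 in MI vehicle and 115 to 225 TPM in MI prednisone mice, and 4 of the 8 (Postn, Comp, Meox1 and Cilp) were called in both treatments. The 8 general fibroblast markers, among them Dcn and Pdgfra, were 896 to 1145 TPM in sham mice and 1605 to 1813 in MI vehicle but 746 to 1224 TPM in MI prednisone mice. Of these, 7 were called higher under vehicle and 0 under prednisone, beside 15.1% and 2.73% of all tested genes. The difference between treatments was called for 5 (background 21.3%). After rescaling 2 were called higher under vehicle, beside 490 of 13158 genes, and with length correction 2, beside 309 of 11894. Under prednisone 0 were called with either change, and the difference was called for 0. Over both treatments 0 were called (3 at an unadjusted p under 0.05 in limma). Cardiomyocyte markers summed to 35039 to 41692 TPM in sham mice, 25373 to 31694 in MI vehicle and 36921 to 40497 TPM in MI prednisone mice. Such a sum is a share of TPM, and how it relates to cardiomyocyte number was not tested. Of the 8 cardiomyocyte markers, Myh6 and Ryr2 were called lower over both treatments, with all mice and in each of the 12 fits that left out a mouse. B cell markers ran from 14.4 to 5452 TPM and adipocyte markers from 16.8 to 1560 TPM, both highest in MI vehicle mouse 3, and no marker of either list was called over both treatments (0 at an unadjusted p under 0.05 in limma). Erythroid markers ran from 26712 to 98114 TPM with 0 members called or at an unadjusted p under 0.05. Ly6g, Sox10, Kcna1 and Myh4 stayed under 1 TPM in every library. What part these cell types had in the changes above was not tested.

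**Figure D5:**
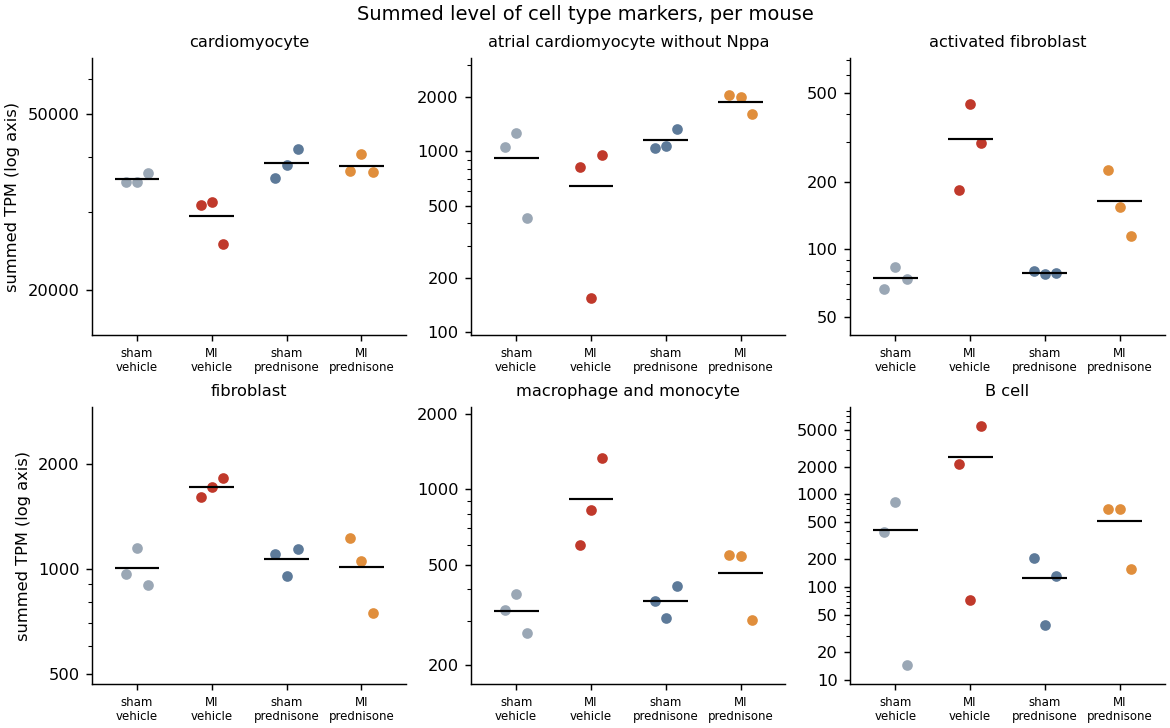
Summed TPM of marker lists for 6 cell types, per mouse, on a log axis, with group means as bars. Activated fibroblast markers are above the sham mice in all 6 MI mice (115 TPM and more), general fibroblast and macrophage markers are above the sham range in all 3 MI vehicle mice, and atrial markers without Nppa are above it in all 3 MI prednisone mice.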

How the data were processed

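Group membership came from the sample titles. The TPM values deposited by the authors are 1 table of 105129 transcript rows in 12 columns, and each column sums to 1000000; the submitters' processing notes name Trimmomatic, HISAT2, kallisto and the mm10 build without versions or roles, and the annotation release is not given in the sources used here. The stranded mRNA libraries were made from total RNA, per the labels' protocols.

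Rows were summed by gene symbol to 33641 genes, of which 13158 with at least 1 TPM in at least 3 libraries were tested as log2(TPM + 1). Models were fitted with limma 3.58.1 (lmFit, eBayes with an intensity trend) in R 4.3.3, tested first on simulated data: surgery with treatment as a covariate, and a mean per group for the effect within each treatment and their difference. Benjamini-Hochberg adjustment ran over all 13158 genes, with calls under 0.05. Transcript lengths and coordinates came from GENCODE M21 on GRCm38 (94.7% of rows matched by identifier, and 97.9% of these carried the same symbol) and promoter sequences from RefSeq GRCm38.p6. Length correction used a loess curve of span 0.5 over the 11894 tested genes with a length (90.4%).

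Genes were named by rule: the 15 largest shared rises and falls with a mean of 5 TPM or more and no overlap of groups, 8 MI markers, the up to 3 smallest p-values of each list, and the 5 smallest p-values in each direction. Other genes named (among them Ankrd1, Ctgf, Sparc, Tnfrsf12a, Atf4, Sprr1a, Col6a3, Ccl8, Gpnmb, Hadhb, Acadvl, Decr1, Mlycd, Acot2, Plin5, Cd36, Ppara, Acadm, Acsl1, Cacna1c, Kcnip2, Ryr2 and the members with a treatment difference) were chosen after their values were seen. The members, lists and rules were chosen with earlier results of these data known. Alternatives were rescaling by median ratios, no filter, a pseudocount of 0.1, no trend, a replicate term, length correction, and leaving out each mouse; centring alone and the most abundant transcript were added after seeing the data.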

Additional observations from a re-analysis of the deposited data

Results flagged for a closer look

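For 13 of the 70 genes named by rule, the effect of MI differed between the treatments by limma's interaction test (adjusted p under 0.05, prednisone minus vehicle). Matrix and Wnt antagonist genes had a lower change under prednisone: Col3a1 by -1.94, Frzb by -1.79, Cilp by -1.78, Col1a1 by -1.73, Sfrp1 by -1.72, Col8a2 by -1.47 and Thbs4 by -1.30. So did muscle, clock and metabolic genes: Nebl, encoding the Z-disc protein nebulette, differed by -1.74 (-0.06 under vehicle and -1.81 under prednisone), Scn4a by -1.19, Nr1d2 by -0.91, Ppm1k by -0.81, Ivd, a leucine breakdown enzyme, by -0.60 and Suclg2, a citrate cycle enzyme, by -0.53. All 13 differences were negative, and 2726 of the 2797 interaction calls over all genes were negative as well. After rescaling the interaction calls numbered 1323, of which 674 were positive, with length correction 250 (111 positive), and with length correction and the replicate block together 97. Of the 13 named genes, Col3a1 and Nebl were the 2 still called after rescaling (-1.40 and -1.20, adjusted p = 0.0283 and 0.0486), and 0 of the 13 were called with length correction.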

How the results depend on the processing

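The count of genes called over both treatments (924) was 2182 with median-ratio rescaling, 1795 with length correction, 1948 with centring alone, 2115 as the mean of the within-treatment effects, 453 with no filter on low values and 272 with the replicate block. Titles number the mice 1 to 3 in each group, but deviations of same-numbered mice did not go together (r from -0.58 to 0.05). With 3 mice a group, these r across genes cannot settle whether the numbers mark pairs or a shared batch. The count called the same way in both treatments (161) was 69 with no filter, 71 with the replicate block, 19 with length correction and block together, and 2 with each treatment fitted alone (2 calls in all under vehicle and 3266 under prednisone). Leaving out 1 mouse gave 170 (without MI prednisone 1) to 1500 genes (without MI prednisone 3) over both treatments, and 27 (without sham vehicle 3) to 367 (without MI vehicle 1) in each. The cause of these shifts was not tested. Over both treatments the count moved by more than 1.5 times without any single sham mouse (266 to 493 genes) or any MI prednisone mouse; the count without MI vehicle 3 was 1020. The count in each treatment moved by more than 1.5 times without any single mouse other than MI vehicle 3: 32 and 74 without sham vehicle 1 and 2, 54, 49 and 61 without sham prednisone 1, 2 and 3, 103 without MI vehicle 2, and 41, 65 and 308 without MI prednisone 1, 2 and 3. Of 70 named genes 63 were called, and 1 changed sign in any alternative: Col15a1, at -0.17 for its most abundant transcript. Of the 63 calls, 12 others were lost with the most abundant transcript, 7 with the replicate block, 1 with length correction and 10 without MI prednisone 1. TPM hides depth, so the precision of low genes is known from the mice alone.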
